A study of Mus musculus with 12 samples.

Results

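The 40 genes described here encode proteins of G2 phase and mitosis. They are the rows of the deposited expression table, 40 of 41009, whose symbol is on a named list of mitosis and G2/M phase genes, and they were measured in 12 bulk RNA-seq libraries of mouse mammary tumours. All 40 passed the filter on low values used for testing (FPKM, fragments scaled to transcript length and library total, of at least 1 in at least 3 libraries), as did 14306 genes in all. Levels of the 40 ran up to 62.1 FPKM, for Ccnb2 in a Ctrl tumour, and 39 of them were at 1 FPKM or more in every library. The exception was Aspm, at 0.708 FPKM in VHH-PD-1-Fc replicate 2. A bulk table carries no cell cycle phase, so the name of the list was checked only against the genes' known roles and their promoters.

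The tumours grew from mCherry-labelled 4T1 cells, a mammary carcinoma line of BALB/c origin, after 5000000 cells were injected into the fat pad of BALB/c females aged 4 to 5 weeks. From day 7, mice received 1 of 4 proteins intraperitoneally, and each group has 3 libraries. VHH-OD-PD-1-Fc, with both binding arms, was given at 4.3 mg/kg, VHH-PD-1-Fc at 2.6 mg/kg, VHH-OD-Fc at 3.5 mg/kg and the control Ctrl-Fc (Ctrl) at 5 mg/kg. VHH names the single-domain binding part taken from camelid antibodies, Fc an antibody's constant region, and PD-1 restrains T cells. The labels do not spell out OD, while endogenous digoxin-like substances are the nanobodies' targets in the series title. The design text of the series names other cells and digoxin treatment and does not match the labels of the 12 samples, which were followed here. The labels give neither the day of tumour collection nor whether the libraries of a group came from separate animals, and p-values therefore rest on the spread between libraries alone, which may be technical.

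Entry into mitosis is driven by Cdk1 bound to B-type cyclins and by the Aurora and Polo kinases. Kinesins and spindle proteins then build the spindle, and the spindle assembly checkpoint holds back the anaphase-promoting complex until every kinetochore is attached. Transcripts of these genes are low in resting cells and peak in G2 and M phase, which is why several of them, such as Mki67 and Top2a, serve as proliferation markers in tumours.

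Many genes of this class are controlled through promoter elements close to the transcription start, the CHR element bound by MuvB complexes and the CCAAT box bound by NF-Y. RefSeq promoter windows (build GRCm38.p6, 250 bases before to 50 after each start) were found for 36 of the 40 genes, all but Aurkb, Ccna2, Kif20a and Tpx2, in 39 windows. The letters TTTGAA, the usual core of a CHR element, were in 84.6% of these windows on either strand, against 17.9% of all 32851 windows. CCAAT was in 84.6% of them, against 37.4% of all windows, and both motifs were in 76.9%, against 6.95%. Of the windows with TTTGAA, 87.9% of those of the 40 genes had it within 50 bases of the start, against 27.6% of all. Matches were counted on both strands, also where the motifs overlapped. A match is a description of the letters and not evidence of binding. Birc5, Bub1, Ccnb1, Cenpe, Mad2l1 and Nusap1 had no TTTGAA in their windows.

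The 5 stretches printed here are the 250 bases before the start, 5′ to 3′ on the gene's strand, of the genes that hold both motifs and differed most among the 4 groups by the moderated F test. Capitals mark TTTGAA and CCAAT or, where the match lies on the other strand, TTCAAA and ATTGG. Prc1 lies at chr7:80294226-80294475 (plus strand), Ncapg at chr5:45669675-45669924 (plus strand), Ckap2l at chr2:129297213-129297462 (minus strand), Mki67 at chr7:135716380-135716629 (minus strand) and Ncapd2 at chr6:125191587-125191836 (minus strand).
Prc1: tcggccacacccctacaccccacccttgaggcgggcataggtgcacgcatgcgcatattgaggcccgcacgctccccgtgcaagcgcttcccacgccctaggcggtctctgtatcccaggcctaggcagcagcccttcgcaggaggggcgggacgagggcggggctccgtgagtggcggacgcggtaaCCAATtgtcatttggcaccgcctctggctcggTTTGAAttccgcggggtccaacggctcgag
Ncapg: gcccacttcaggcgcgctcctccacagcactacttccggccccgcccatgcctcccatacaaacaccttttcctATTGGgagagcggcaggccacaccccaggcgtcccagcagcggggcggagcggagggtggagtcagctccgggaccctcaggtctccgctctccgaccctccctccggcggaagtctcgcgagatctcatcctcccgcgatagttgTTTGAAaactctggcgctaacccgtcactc
Ckap2l: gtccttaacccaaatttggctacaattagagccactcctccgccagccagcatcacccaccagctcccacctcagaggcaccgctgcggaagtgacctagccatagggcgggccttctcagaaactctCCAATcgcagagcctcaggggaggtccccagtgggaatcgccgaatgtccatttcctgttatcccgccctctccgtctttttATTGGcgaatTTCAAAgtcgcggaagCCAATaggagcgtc
Mki67: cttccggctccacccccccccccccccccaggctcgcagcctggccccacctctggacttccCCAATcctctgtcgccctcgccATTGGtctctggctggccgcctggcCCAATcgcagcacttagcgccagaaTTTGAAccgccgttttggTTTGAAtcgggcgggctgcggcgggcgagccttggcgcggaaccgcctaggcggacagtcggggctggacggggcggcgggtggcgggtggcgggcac
Ncapd2: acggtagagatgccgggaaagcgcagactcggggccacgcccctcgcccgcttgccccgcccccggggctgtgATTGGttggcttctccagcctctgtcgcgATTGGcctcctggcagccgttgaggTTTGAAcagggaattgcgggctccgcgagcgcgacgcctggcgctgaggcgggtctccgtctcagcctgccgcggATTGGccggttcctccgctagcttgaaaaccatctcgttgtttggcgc
In Prc1 the CCAAT box stands just upstream of TTTGAA near the end of the stretch, while Mki67 carries TTTGAA at 2 places and CCAAT at 3. TTTGAA was found in 19 of 22 genes with a window that fell after VHH-PD-1-Fc and in 11 of 14 that did not pass the test.

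Several features of the libraries touch the results. The summed FPKM was 388142 to 401179 in the 6 libraries with the PD-1 arm and 327792 to 345596 in the 6 without it, and since no batch is labelled, the PD-1 arm and a batch cannot be told apart. Libraries of the VHH-OD-PD-1-Fc group were the closest to each other, with a median SD per gene of 0.0747 on the log2 scale, against 0.247 in VHH-PD-1-Fc, 0.123 in VHH-OD-Fc and 0.14 in Ctrl. Counts that rest on them are therefore also given with the 3 averaged into 1 sample, where 761 of all genes were lower and 551 higher than in Ctrl, against 3878 and 2158 with 3 libraries. For the 40 genes the same SD was 0.0609 in VHH-OD-PD-1-Fc, 0.338 in VHH-PD-1-Fc, 0.136 in VHH-OD-Fc and 0.188 in Ctrl. VHH-PD-1-Fc replicate 2, VHH-OD-Fc replicate 2 and Ctrl replicate 1 stood apart in marker genes or in the number of genes above 0, and counts are also given without all 3. Depth, estimated from the steps between low values, was 21800000 to 30500000 fragments per library. All 8 markers of tumour epithelium passed the filter, with a summed level of 2677 to 2747 FPKM in VHH-OD-PD-1-Fc, 2083 to 3862 in VHH-PD-1-Fc, 2406 to 2576 in VHH-OD-Fc and 1239 to 2950 in Ctrl tumours, lowest in Ctrl replicate 1.

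Given the PD-1 arm alone (VHH-PD-1-Fc against Ctrl), tumours had lower levels of most mitotic genes. Of the 40 genes, 25 fell and 0 rose at an adjusted p under 0.05, against 32.3% of all tested genes lower and 14.6% higher. The log2 fold change was negative for 37 of the 40, with a median of -0.55, while the median of all tested genes was -0.19. It ran down to -1.72 for Prc1 and up to 0.31 for Birc5. In 21 of the 40 genes every VHH-PD-1-Fc library lay below every Ctrl library, against 33.7% of all genes. The largest falls were in Prc1, Kif20a, Mki67, Ndc80 and Ncapg. In bulk tumour RNA, fewer dividing cells and less mitotic RNA per cell cannot be told apart.

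The scaling of the table moved these counts, and the median of all genes shifted with it. Rescaled to TPM, 33 of the 40 were lower and 0 higher, with a median of all genes of -0.43. With median-of-ratios scaling 17 were lower and 2 higher, with quantile normalization 16 and 0, and with the trends on transcript length and GC content removed 14 and 2, where the median of all genes was within 0.03 of 0. The median of the 40 stayed negative under each of these scalings, at -0.80 with TPM, -0.35 with median of ratios, -0.36 with quantile normalization and -0.26 with the trends removed. Over all genes the split moved too, with 47.5% lower and 9.41% higher with TPM and 20.1% lower and 22% higher with median of ratios. It was 18.1% and 19.7% with quantile normalization and 16.4% and 21.2% with the trends removed. Without the 3 libraries that stood apart, 17 were lower, against 24.1% of all genes. Ttk, Cenpf, Aurkb, Kif11 and Kif23 lost the call without Ctrl replicate 1, Ctrl replicate 3, VHH-PD-1-Fc replicate 1 or VHH-PD-1-Fc replicate 2, Ccna2 without Ctrl replicate 1 or 3 and Bub1b without Ctrl replicate 1. Of the 25 calls, 12 were kept under every alternative in which they were tested: Aspm, Bub1, Ccnb1, Ckap2l, Ect2, Kif18b, Kif20a, Mki67, Ncapg, Ndc80, Prc1 and Top2a.

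The 3 VHH-PD-1-Fc tumours did not carry the fall equally. Relative to the Ctrl mean, the median of the 40 genes on the log2 scale was -0.84, -0.65 and -0.18 in replicates 1, 2 and 3. Replicate 1 was the lowest of all 12 libraries for 24 genes, and replicate 3 was the highest of its group for 34. Without replicate 3, 33 of the 40 genes were lower, against 33.2% of all genes, and without Ctrl replicate 1, 18 were, against 26.4%. The same quantity was -0.22, -0.22 and -0.19 in the VHH-OD-PD-1-Fc tumours, 0.07, -0.10 and -0.12 in the VHH-OD-Fc tumours and 0.12, -0.21 and 0.08 in the Ctrl tumours, so Ctrl replicate 2 was as low as the VHH-OD-PD-1-Fc tumours on this measure and VHH-PD-1-Fc replicate 3 was no lower.

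**Figure D1:**
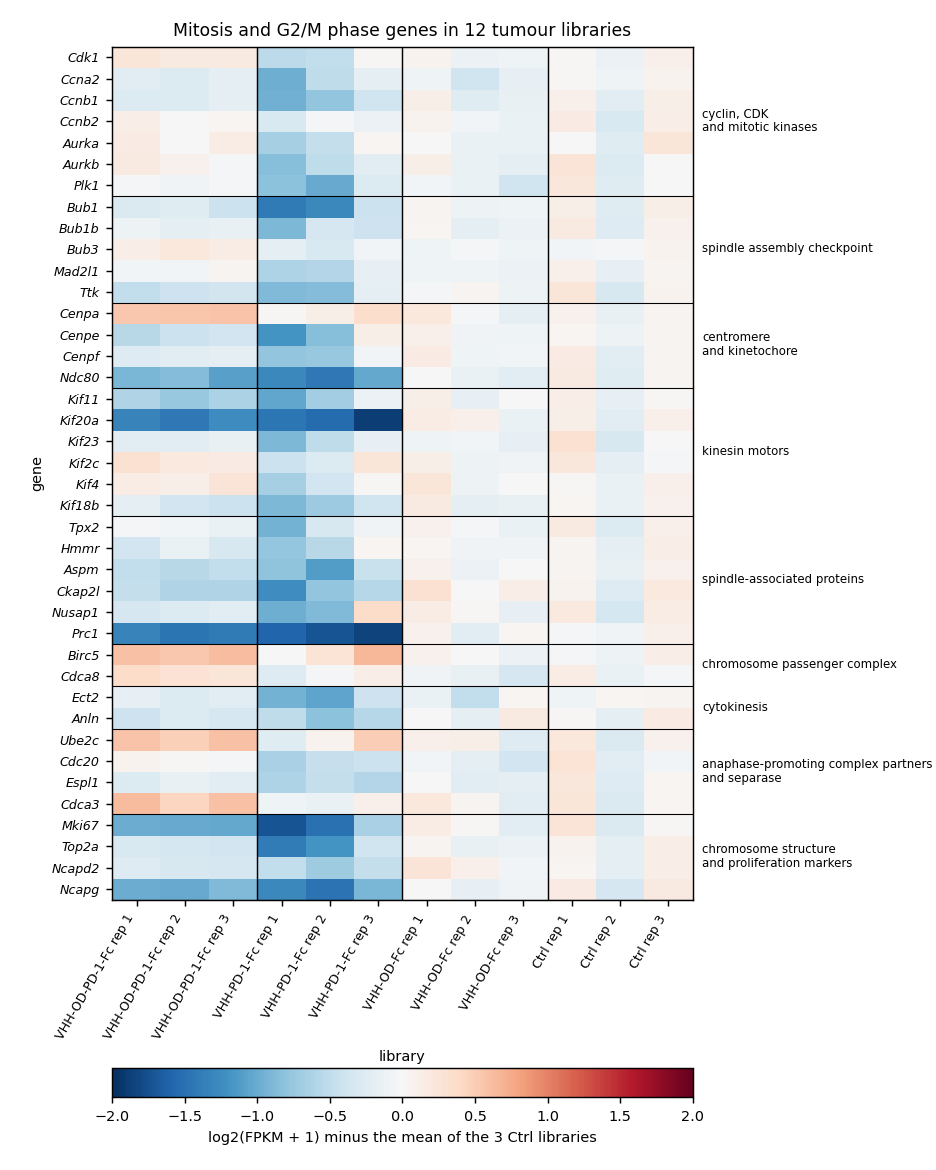
Each row is 1 of the 40 genes, grouped by role, and each column 1 library; colour gives log2(FPKM + 1) minus the mean of the 3 Ctrl libraries, blue for lower and red for higher. VHH-PD-1-Fc replicates 1 and 2 are blue in most rows, Prc1, Kif20a, Ndc80, Mki67 and Ncapg are blue in all 6 libraries with the PD-1 arm, and Cenpa, Birc5, Ube2c and Cdca3 are red in the 3 VHH-OD-PD-1-Fc libraries.

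With both arms in 1 protein, VHH-OD-PD-1-Fc against Ctrl, the group split. Prc1, Kif20a, Mki67, Ndc80, Ncapg, Kif11, Ckap2l, Aspm and Ncapd2 fell, while Cenpa, Birc5, Cdca3 and Ube2c rose. These 9 of 40 lower and 4 higher stand beside 27.1% of all genes lower and 15.1% higher, so the share of the 40 was near that of all genes in both directions. The median log2 fold change of the 40 was -0.22, against -0.14 for all genes, and it turned to 0.03 with the length and GC trends removed. Groups did not overlap for 17 genes that were lower and 8 that were higher, against 41.4% and 23.0% of all genes. Each of the 9 that fell had also fallen after VHH-PD-1-Fc, a comparison that shares the Ctrl libraries. Another 16 passed the test after VHH-PD-1-Fc but not after VHH-OD-PD-1-Fc, the 4 that rose passed after VHH-OD-PD-1-Fc but not after VHH-PD-1-Fc, and 11 passed in neither.

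With the libraries of VHH-OD-PD-1-Fc averaged into 1 sample, 3 genes were lower, Kif20a, Ndc80 and Prc1, and 0 were higher. These 3 were also the only ones of the 9 that kept the call under every alternative in which they were tested. Leaving out Ctrl replicate 1, Ctrl replicate 3 or VHH-OD-PD-1-Fc replicate 2 left 5 lower, against 21.8%, 20.9% and 20% of all genes. Leaving out VHH-PD-1-Fc replicate 3, which enters through the shared estimate of spread, gave 14, against 30.1% of all genes. With TPM scaling 17 were lower and 1 higher, beside 43.3% and 9.89% of all genes. With median of ratios 6 were lower and 7 higher, beside 18.1% and 21% of all genes, so the counts lower moved with those of all genes. Without the 3 libraries that stood apart, 7 were lower and 4 higher, beside 26.9% and 16.5% of all genes.

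**Figure D2:**
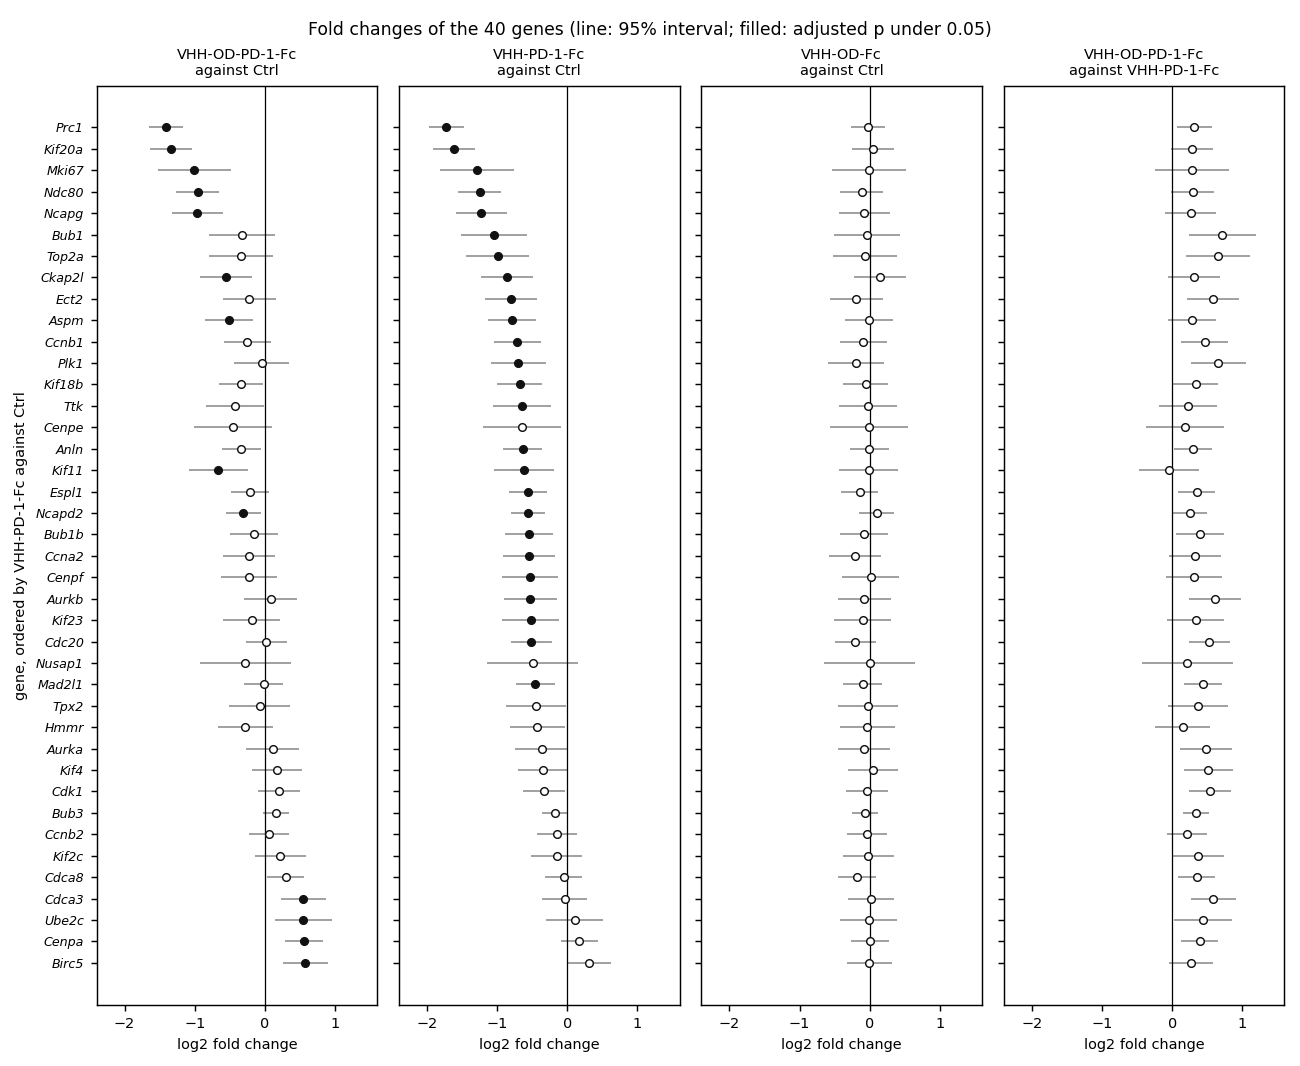
Points give the log2 fold change of each of the 40 genes on log2(FPKM + 1), with its 95% interval, in 4 comparisons; filled points passed an adjusted p under 0.05. Filled points number 9 lower and 4 higher for VHH-OD-PD-1-Fc against Ctrl, 25 lower for VHH-PD-1-Fc against Ctrl and 0 in the other panels, and 39 of 40 points lie right of 0 for VHH-OD-PD-1-Fc against VHH-PD-1-Fc.

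Among the cyclins, Cdk1 and the mitotic kinases, 4 of 7 fell after VHH-PD-1-Fc, against 32.3% of all genes. After VHH-OD-PD-1-Fc 0 of 7 changed, where 27.1% of all genes fell and 15.1% rose. Ccnb1, the cyclin B1 that activates Cdk1 at mitotic entry, was at 13.3, 13.2 and 14.1 FPKM in VHH-OD-PD-1-Fc tumours, 7.89, 8.92 and 12.1 in VHH-PD-1-Fc tumours, 17.7, 13.5 and 14.6 in VHH-OD-Fc tumours and 17.4, 13.9 and 17.6 in Ctrl tumours. All VHH-PD-1-Fc values lay below all Ctrl values, and the VHH-OD-PD-1-Fc values overlapped the Ctrl range. The log2 fold change was -0.71 (SE 0.15, adjusted p = 0.00343) after VHH-PD-1-Fc and -0.25 (SE 0.15, adjusted p = 0.207) after VHH-OD-PD-1-Fc, so Ccnb1 fell in the first and did not pass the test in the second. Plk1, the Polo kinase of spindle assembly and mitotic exit, was at 26.1, 25.4 and 26.4 FPKM in VHH-OD-PD-1-Fc tumours, 14.8, 12.9 and 22 in VHH-PD-1-Fc tumours, 25.7, 24.4 and 20.2 in VHH-OD-Fc tumours and 31.7, 22.6 and 27 in Ctrl tumours. VHH-PD-1-Fc replicate 3 came close to the lowest Ctrl value and the other 2 replicates stood well below it. Plk1 fell after VHH-PD-1-Fc, with -0.70 (SE 0.18, adjusted p = 0.00884) on the log2 scale, and its value after VHH-OD-PD-1-Fc was -0.05 (SE 0.18, adjusted p = 0.855). The call after VHH-PD-1-Fc was lost when only the groups compared entered the fit, at an adjusted p of 0.0525, and without the 3 libraries that stood apart, at 0.102.

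Aurkb, the Aurora kinase of the chromosome passenger complex, had 22.4, 20.8 and 19.3 FPKM in VHH-OD-PD-1-Fc tumours, 10.4, 13.5 and 16.6 in VHH-PD-1-Fc tumours, 21.3, 17.7 and 16.9 in VHH-OD-Fc tumours and 23.7, 16.1 and 19.7 in Ctrl tumours. The VHH-PD-1-Fc and Ctrl ranges overlapped through VHH-PD-1-Fc replicate 3 and Ctrl replicate 2. It fell after VHH-PD-1-Fc, with -0.53 (SE 0.17, adjusted p = 0.0266), a call that was also lost under 3 of the 4 scalings. Ccna2, cyclin A2 of S phase and G2, fell, with a log2 change of -0.55 (SE 0.17, adjusted p = 0.0202). This Ccna2 call was kept under only 1 of the 4 scalings, and Ccna2 did not pass the F test (adjusted p = 0.0832). Cdk1 itself, the kinase at the centre of mitotic entry, was at 27.4, 26.3 and 26.3 FPKM in VHH-OD-PD-1-Fc tumours, 15.7, 16.1 and 23.4 in VHH-PD-1-Fc tumours, 24.2, 21.3 and 21.8 in VHH-OD-Fc tumours and 23.5, 21.1 and 24.8 in Ctrl tumours. Its VHH-OD-PD-1-Fc values lay above all Ctrl values, and VHH-PD-1-Fc replicates 1 and 2 lay below them. Neither difference passed the test, at 0.20 (SE 0.14, adjusted p = 0.247) after VHH-OD-PD-1-Fc and -0.33 (SE 0.14, adjusted p = 0.0619) after VHH-PD-1-Fc. Ccnb2 (cyclin B2) at -0.15 and Aurka, the centrosomal Aurora kinase, at -0.37 after VHH-PD-1-Fc did not pass either. The table also holds rows named for pseudogenes of Ccnb1, Ccnb2 and Kif4, and reads from such copies could be shared, so the levels of these 3 genes are uncertain to that extent.

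All 5 genes of the spindle assembly checkpoint differed among the 4 groups by the F test, against 49.7% of all genes. After VHH-PD-1-Fc 4 of 5 fell, against 32.3% of all genes. Bub1, a checkpoint kinase that marks centromeric chromatin, was at 7.38, 7.66 and 6.61 FPKM in VHH-OD-PD-1-Fc tumours, 2.86, 3.23 and 6.62 in VHH-PD-1-Fc tumours, 9.72, 8.62 and 8.74 in VHH-OD-Fc tumours and 10.2, 7.69 and 10.2 in Ctrl tumours. VHH-PD-1-Fc replicates 1 and 2 were the lowest while replicate 3 stood close to VHH-OD-PD-1-Fc, and all 6 lay below the Ctrl values. It fell, with a log2 change of -1.04 (SE 0.21, adjusted p = 0.00286) after VHH-PD-1-Fc, and the value after VHH-OD-PD-1-Fc was -0.33 (SE 0.21, adjusted p = 0.239). Bub1b (BubR1, part of the mitotic checkpoint complex) fell, with a log2 change of -0.55 (SE 0.16, adjusted p = 0.0141), Ttk (the Mps1 kinase that starts checkpoint signalling) with -0.65 (SE 0.19, adjusted p = 0.0165) and Mad2l1 (Mad2, which binds Cdc20) with -0.46 (SE 0.12, adjusted p = 0.0123). The sign of Mad2l1 turned with the length and GC trends removed, at 0.016 after VHH-PD-1-Fc. Calls of Bub1b and Mad2l1 were kept under only 1 of the 4 other scalings, and that of Ttk under 2. Bub3, which docks Bub1 and BubR1 at kinetochores, did not pass in either comparison with Ctrl, at 0.16 after VHH-OD-PD-1-Fc and -0.18 after VHH-PD-1-Fc.

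The 4 centromere and kinetochore genes moved apart. Ndc80, the microtubule-binding subunit of the outer kinetochore, was at 2.4, 2.51 and 2.01 FPKM in VHH-OD-PD-1-Fc tumours, 1.62, 1.37 and 2.16 in VHH-PD-1-Fc tumours, 5.4, 4.86 and 4.55 in VHH-OD-Fc tumours and 6.28, 4.42 and 5.66 in Ctrl tumours. Every library with the PD-1 arm lay below every library without it. It fell after both constructs, with -0.96 (SE 0.14, adjusted p = 0.000549) after VHH-OD-PD-1-Fc and -1.25 (SE 0.14, adjusted p = 0.000131) after VHH-PD-1-Fc under every alternative in which it was tested. Cenpa, the histone H3 variant that marks centromeres, was at 27.2, 27.6 and 28 FPKM in VHH-OD-PD-1-Fc tumours, 18.8, 20.1 and 23.8 in VHH-PD-1-Fc tumours, 21.6, 18 and 16.2 in VHH-OD-Fc tumours and 19.7, 16.5 and 19.3 in Ctrl tumours. Here the VHH-OD-PD-1-Fc values were the highest and overlapped no other group, while VHH-PD-1-Fc overlapped Ctrl. Cenpa rose after VHH-OD-PD-1-Fc, by 0.56 (SE 0.12, adjusted p = 0.00421), a call lost only when its group of 3 was averaged into 1 sample, and it did not pass after VHH-PD-1-Fc, at 0.17. Cenpf, a large kinetochore protein of G2 and M phase, fell, with a log2 change of -0.54 (SE 0.18, adjusted p = 0.0327) after VHH-PD-1-Fc, and the motor Cenpe, which brings chromosomes to the spindle equator, did not pass, at -0.64 (SE 0.25, adjusted p = 0.0563). In VHH-PD-1-Fc replicate 3 Cenpe was at 9.85 FPKM, above the Ctrl range, and Cenpf at 3.69 FPKM, within it, unlike replicates 1 and 2. The Cenpf call was kept under only 1 of the 4 other scalings.

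Of the 6 other kinesin motors, 4 fell after VHH-PD-1-Fc, against 32.3% of all genes. After VHH-OD-PD-1-Fc 2 of the 6 fell, a share near the 27.1% of all genes. Kif20a (MKLP2), which carries the chromosome passenger complex to the central spindle, was at 3.59, 3.32 and 3.86 FPKM in VHH-OD-PD-1-Fc tumours, 3.25, 2.99 and 2.14 in VHH-PD-1-Fc tumours, 11.9, 11.4 and 9.58 in VHH-OD-Fc tumours and 11.5, 9.01 and 11.4 in Ctrl tumours. The 6 libraries with the PD-1 arm ranged from 2.14 to 3.86 FPKM and overlapped none of the 6 without it. It fell, with a log2 change of -1.34 (SE 0.14, adjusted p = 0.000103) after VHH-OD-PD-1-Fc and with -1.62 (SE 0.14, adjusted p = 3.78e-05) after VHH-PD-1-Fc. Kif11 (Eg5), which pushes spindle poles apart, was at 3.68, 3.24 and 3.61 FPKM in VHH-OD-PD-1-Fc tumours, 2.47, 3.41 and 5.6 in VHH-PD-1-Fc tumours, 6.78, 5.37 and 6.09 in VHH-OD-Fc tumours and 6.83, 5.39 and 6.26 in Ctrl tumours. VHH-PD-1-Fc replicate 3 reached the Ctrl range while its other replicates and all VHH-OD-PD-1-Fc libraries lay below it. Kif11 fell after both, with -0.66 (SE 0.19, adjusted p = 0.0178) after VHH-OD-PD-1-Fc and -0.62 (SE 0.19, adjusted p = 0.0229) after VHH-PD-1-Fc. Both calls were lost without Ctrl replicate 1 or 3, the one after VHH-OD-PD-1-Fc also without its replicate 2 and the one after VHH-PD-1-Fc also without its replicate 1 or 2, and both with the length and GC trends removed. Kif18b, a microtubule depolymerase of the spindle, fell, with a log2 change of -0.68 (SE 0.15, adjusted p = 0.0036) after VHH-PD-1-Fc, and Kif23 (MKLP1, of the cytokinetic centralspindlin complex) with -0.52 (SE 0.18, adjusted p = 0.0365). The Kif23 call held in 9 of 24 alternatives, and was lost without Ctrl replicate 1 or 3, VHH-PD-1-Fc replicate 1 or 2 or any 1 VHH-OD-PD-1-Fc library. Kif2c, a centromeric depolymerase, at -0.15, and Kif4, a chromosome-bound kinesin, at -0.34, did not pass.

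Spindle-associated proteins held the largest fall of the 40. Prc1, which bundles antiparallel microtubules of the central spindle, was at 2.4, 2.09 and 2.2 FPKM in VHH-OD-PD-1-Fc tumours, 1.85, 1.58 and 1.36 in VHH-PD-1-Fc tumours, 8.06, 6.35 and 7.82 in VHH-OD-Fc tumours and 7.35, 7.11 and 8.22 in Ctrl tumours. Means were 2.23 ± 0.156 FPKM in VHH-OD-PD-1-Fc tumours, 1.6 ± 0.245 in VHH-PD-1-Fc tumours, 7.41 ± 0.925 in VHH-OD-Fc tumours and 7.56 ± 0.58 in Ctrl tumours (SD, n = 3 each). The libraries with the arm and those without it were separated by a wide gap, and replicate 3 of VHH-PD-1-Fc was here the lowest. Prc1 fell, with a log2 change of -1.41 (SE 0.11, adjusted p = 2.76e-05) after VHH-OD-PD-1-Fc and with -1.72 (SE 0.11, adjusted p = 1.07e-05) after VHH-PD-1-Fc under every alternative in which it was tested. Ckap2l, a spindle protein also known as radmis, was at 10, 9.09 and 9.11 FPKM in VHH-OD-PD-1-Fc tumours, 5.48, 7.88 and 9.25 in VHH-PD-1-Fc tumours, 17.9, 14.3 and 15.7 in VHH-OD-Fc tumours and 15, 11.8 and 16.4 in Ctrl tumours, with every library of both PD-1 groups below Ctrl. It fell, with a log2 change of -0.56 (SE 0.17, adjusted p = 0.0212) after VHH-OD-PD-1-Fc and -0.87 (SE 0.17, adjusted p = 0.00208) after VHH-PD-1-Fc. Aspm, which focuses microtubules at spindle poles, fell, with a log2 change of -0.51 (SE 0.16, adjusted p = 0.0217) after VHH-OD-PD-1-Fc and -0.79 (SE 0.16, adjusted p = 0.0022) after VHH-PD-1-Fc, at levels of 0.708 to 2.94 FPKM. After VHH-OD-PD-1-Fc both calls were lost without Ctrl replicate 1 or 3. That of Ckap2l was also lost without VHH-OD-PD-1-Fc replicate 2 or 3 and that of Aspm without any 1 VHH-OD-PD-1-Fc library. Both calls were kept under only 1 of the 4 other scalings, and that of Ckap2l was lost without the 3 libraries that stood apart. Tpx2, an activator of Aurora A, at -0.44, Hmmr, a hyaluronan receptor with a role at spindle poles, at -0.43, and Nusap1, a microtubule stabiliser, at -0.50, did not pass after VHH-PD-1-Fc. For Nusap1 the VHH-PD-1-Fc replicates were at 4.9, 5.26 and 13.9 FPKM, so replicate 3 exceeded every Ctrl library.

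Birc5 and Cdca8 belong, with Aurkb, to the chromosome passenger complex, and unlike Aurkb neither passed the test as lower. Birc5 (survivin), which brings the passenger complex to centromeres, was at 37.9, 36.7 and 38.9 FPKM in VHH-OD-PD-1-Fc tumours, 24.9, 30.4 and 40.3 in VHH-PD-1-Fc tumours, 26.7, 25.3 and 22.9 in VHH-OD-Fc tumours and 24.7, 23.2 and 27.4 in Ctrl tumours. Its VHH-OD-PD-1-Fc values lay above every VHH-OD-Fc and Ctrl value, and the VHH-PD-1-Fc values spread from the Ctrl range to above VHH-OD-PD-1-Fc. Birc5 rose after VHH-OD-PD-1-Fc, by 0.58 (SE 0.15, adjusted p = 0.00909), and had 0.31 (SE 0.15, adjusted p = 0.101) after VHH-PD-1-Fc. The rise was lost with TPM scaling and when the VHH-OD-PD-1-Fc group was averaged into 1 sample. Cdca8 (borealin), its partner in the complex, was at 14.5, 13.6 and 13.1 FPKM in VHH-OD-PD-1-Fc tumours, 9.01, 10.7 and 12.2 in VHH-PD-1-Fc tumours, 10.4, 9.82 and 8.52 in VHH-OD-Fc tumours and 12.3, 9.96 and 10.8 in Ctrl tumours. All VHH-OD-PD-1-Fc values were above all others, but Cdca8 did not pass against Ctrl, at 0.30 (SE 0.12, adjusted p = 0.065).

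Both cytokinesis genes fell after VHH-PD-1-Fc, as did 32.3% of all genes. Anln (anillin), the scaffold of the contractile ring, was at 11.7, 12.9 and 12.4 FPKM in VHH-OD-PD-1-Fc tumours, 10.9, 8.52 and 10.3 in VHH-PD-1-Fc tumours, 15.8, 13.7 and 18.1 in VHH-OD-Fc tumours and 16.1, 13.9 and 17.8 in Ctrl tumours. Values with the PD-1 arm were all below those without it. It fell, with a log2 change of -0.64 (SE 0.13, adjusted p = 0.00232) after VHH-PD-1-Fc and missed the threshold after VHH-OD-PD-1-Fc, at -0.34 (SE 0.13, adjusted p = 0.0501). Ect2, the exchange factor that starts furrowing at the division plane, fell, with a log2 change of -0.80 (SE 0.17, adjusted p = 0.00326) after VHH-PD-1-Fc under every alternative run, while its value after VHH-OD-PD-1-Fc was -0.22 (SE 0.17, adjusted p = 0.316).

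Partners of the anaphase-promoting complex split in both directions. Cdc20, the activator of that complex at anaphase, was at 50.7, 48.6 and 46.9 FPKM in VHH-OD-PD-1-Fc tumours, 30.4, 34.7 and 35.3 in VHH-PD-1-Fc tumours, 46.4, 42.1 and 36.5 in VHH-OD-Fc tumours and 58.5, 40.9 and 46.3 in Ctrl tumours. VHH-PD-1-Fc libraries were below all Ctrl libraries, and VHH-OD-PD-1-Fc libraries lay inside the Ctrl range. Cdc20 fell, with a log2 change of -0.51 (SE 0.13, adjusted p = 0.00944) after VHH-PD-1-Fc, with 0.02 (SE 0.13, adjusted p = 0.919) after VHH-OD-PD-1-Fc. Espl1 (separase), the protease that opens cohesin rings, was at 4.26, 4.73 and 4.45 FPKM in VHH-OD-PD-1-Fc tumours, 3.15, 3.55 and 3.22 in VHH-PD-1-Fc tumours, 5.28, 4.4 and 4.55 in VHH-OD-Fc tumours and 6.39, 4.31 and 5.5 in Ctrl tumours. It fell, with a log2 change of -0.56 (SE 0.12, adjusted p = 0.0037) after VHH-PD-1-Fc, where no library reached the Ctrl range, and did not pass after VHH-OD-PD-1-Fc, at -0.21. Cdca3, a trigger of Wee1 degradation, was at 23.8, 20.6 and 23 FPKM in VHH-OD-PD-1-Fc tumours, 14.1, 13.7 and 16.2 in VHH-PD-1-Fc tumours, 17.6, 15.7 and 12.8 in VHH-OD-Fc tumours and 18, 12.2 and 15.5 in Ctrl tumours, and Ube2c, the E2 enzyme of the complex, was at 58.2, 54.5 and 58.4 FPKM in VHH-OD-PD-1-Fc tumours, 32.7, 40.7 and 54.7 in VHH-PD-1-Fc tumours, 41.5, 42.1 and 32.3 in VHH-OD-Fc tumours and 44.9, 31.4 and 41.3 in Ctrl tumours. For both genes each VHH-OD-PD-1-Fc library was above each Ctrl library, and VHH-PD-1-Fc overlapped Ctrl. After VHH-OD-PD-1-Fc, Cdca3 rose by 0.55 (SE 0.15, adjusted p = 0.0122) and Ube2c by 0.55 (SE 0.19, adjusted p = 0.0353). Neither rise held with TPM scaling or with the 3 libraries as 1 sample, and that of Ube2c was also lost without any 1 VHH-OD-PD-1-Fc library and without Ctrl replicate 2 or 3.

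All 4 genes of chromosome structure and proliferation fell after VHH-PD-1-Fc, against 32.3% of all genes. Mki67, the coat protein of mitotic chromosomes known as Ki-67, was at 9.67, 9.55 and 9.43 FPKM in VHH-OD-PD-1-Fc tumours, 5.39, 6.57 and 12.5 in VHH-PD-1-Fc tumours, 22.6, 20.6 and 17.1 in VHH-OD-Fc tumours and 24.4, 16.4 and 20.5 in Ctrl tumours. Mean levels were 9.55 ± 0.121 FPKM in VHH-OD-PD-1-Fc tumours, 8.16 ± 3.83 in VHH-PD-1-Fc tumours, 20.1 ± 2.82 in VHH-OD-Fc tumours and 20.4 ± 3.99 in Ctrl tumours (SD, n = 3 each). Every library with the PD-1 arm was below every library without it, and the 3 VHH-OD-PD-1-Fc values lay inside the wide VHH-PD-1-Fc range. Mki67 fell, with a log2 change of -1.0 (SE 0.24, adjusted p = 0.00683) after VHH-OD-PD-1-Fc, a call lost when those 3 libraries counted as 1 sample, and with -1.29 (SE 0.24, adjusted p = 0.00164) after VHH-PD-1-Fc. Top2a, the topoisomerase that untangles sister chromatids, was at 26, 24.9 and 24.6 FPKM in VHH-OD-PD-1-Fc tumours, 11.6, 13.5 and 24.2 in VHH-PD-1-Fc tumours, 33.5, 29.1 and 29.7 in VHH-OD-Fc tumours and 33.7, 28.1 and 35.3 in Ctrl tumours. It fell after VHH-PD-1-Fc, with -1.0 (SE 0.21, adjusted p = 0.00298), and did not pass after VHH-OD-PD-1-Fc, at -0.34 (SE 0.21, adjusted p = 0.199), although its 3 libraries lay below all Ctrl values.

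The condensin subunits Ncapg and Ncapd2, which fold mitotic chromosomes, fell after both constructs. Ncapg was at 1.91, 1.88 and 2.12 FPKM in VHH-OD-PD-1-Fc tumours, 1.36, 1.07 and 2.08 in VHH-PD-1-Fc tumours, 4.79, 4.13 and 4.53 in VHH-OD-Fc tumours and 5.44, 3.6 and 5.51 in Ctrl tumours, with no overlap between the libraries with and without the arm. Its change was -0.96 (SE 0.17, adjusted p = 0.00123) after VHH-OD-PD-1-Fc and -1.23 (SE 0.17, adjusted p = 0.000308) after VHH-PD-1-Fc. Ncapd2 fell, with a log2 change of -0.31 (SE 0.11, adjusted p = 0.0463) after VHH-OD-PD-1-Fc, a call kept in 12 of 24 alternatives and lost without Ctrl replicate 1 or 3, VHH-OD-Fc replicate 2 or any 1 VHH-OD-PD-1-Fc library, and with -0.56 (SE 0.11, adjusted p = 0.00242) after VHH-PD-1-Fc.

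**Figure D3:**
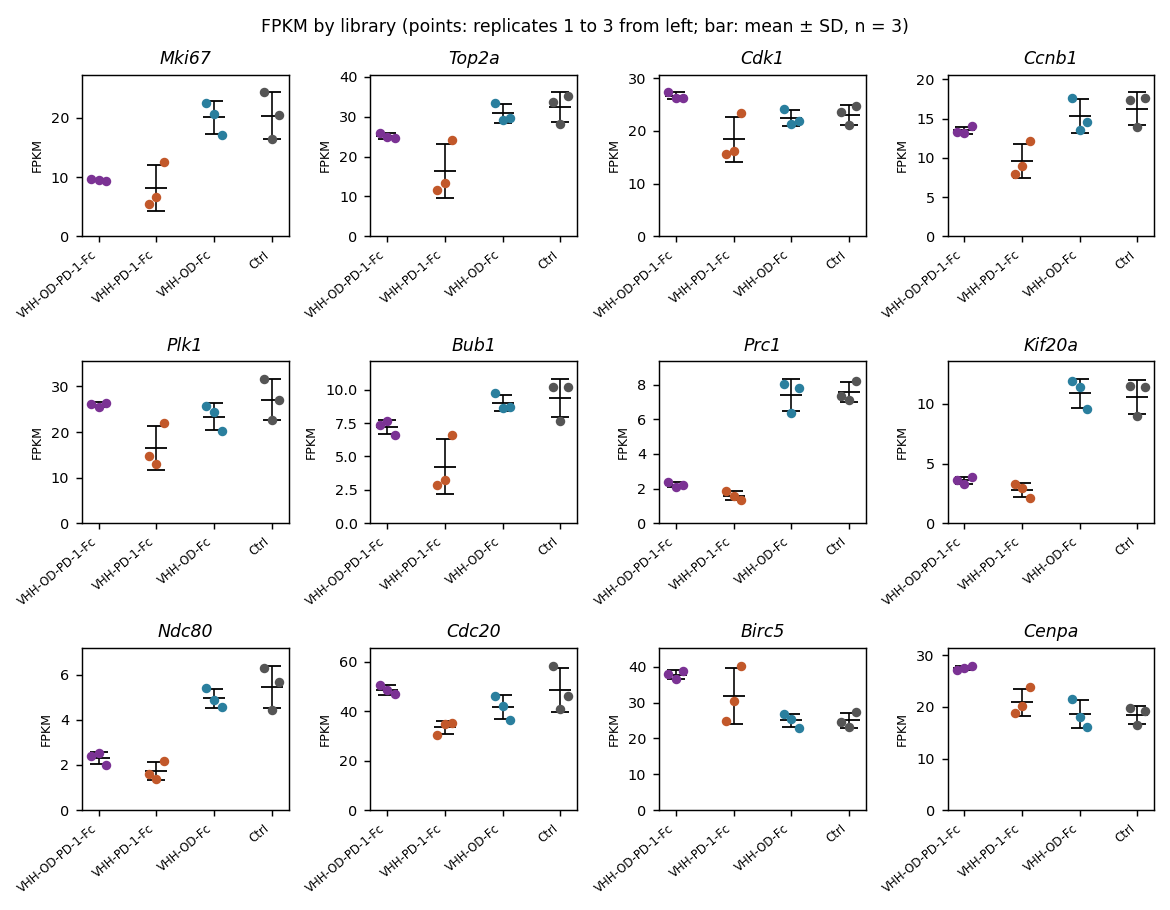
FPKM of 12 of the genes in each library (points, replicates 1 to 3 from left in each group) with the group mean and SD (n = 3). Prc1, Kif20a and Ndc80 are lower in all 6 libraries with the PD-1 arm than in the 6 without it, Mki67 spans 5.39 to 12.5 FPKM within VHH-PD-1-Fc, and Cenpa is highest in the VHH-OD-PD-1-Fc libraries.

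VHH-OD-PD-1-Fc against VHH-PD-1-Fc asked what the OD arm added to the PD-1 arm. No gene of the 40 passed the test, where 0.301% of all genes were lower and 0.538% higher, and 23 of the 40 had an unadjusted p under 0.05 in limma, against 15.5% of all genes. The sign was positive for 39 of the 40, with a median of 0.34 against 0.04 for all genes, and Kif11 at -0.05 (95% interval -0.47 to 0.38) was the exception. In 20 genes every VHH-OD-PD-1-Fc library lay above every VHH-PD-1-Fc library, against 13.8% of all genes, and in 0 genes below, against 7.25%. The smallest p-values belonged to Bub3 at 0.34 (SE 0.08, adjusted p = 0.0873), Cdc20 at 0.53 (SE 0.13, adjusted p = 0.0944) and Cdca3 at 0.59 (SE 0.15, adjusted p = 0.0944). Among the others, Bub1 had 0.72 (95% interval 0.24 to 1.19), Plk1 0.65 (95% interval 0.26 to 1.05), Top2a 0.65 (95% interval 0.20 to 1.10), Aurkb 0.61 (95% interval 0.23 to 0.99) and Cdk1 0.54 (95% interval 0.24 to 0.83). For Mki67 the value was 0.28 (95% interval -0.24 to 0.81), so a difference in either direction was within its interval. The count depended on single libraries. Without VHH-PD-1-Fc replicate 3, the highest of its group for 34 of the 40 genes, 14 of the 40 were higher, against 2.69% of all genes. Without Ctrl replicate 1, 1 was, against 0.86% of all genes.

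VHH-OD-PD-1-Fc against VHH-OD-Fc asked what the PD-1 arm added to the OD arm, and 9 of the 40 were lower and 6 higher, beside 24.5% and 15.4% of all genes. The share of the 40 was again near that of all genes. Prc1 at -1.38 (SE 0.11, adjusted p = 4.08e-05), Kif20a at -1.38 (SE 0.14, adjusted p = 9.31e-05) and Ndc80 at -0.84 (SE 0.14, adjusted p = 0.00112) had the smallest p-values among the falls, and Cenpa at 0.56 (SE 0.12, adjusted p = 0.00476), Cdca8 at 0.48 (SE 0.12, adjusted p = 0.00935) and Birc5 at 0.58 (SE 0.15, adjusted p = 0.00938) among the rises. The other falls were Mki67, Ncapg, Ckap2l, Kif11, Aspm and Ncapd2, and the other rises Cdca3, Ube2c and Bub3. The median was -0.08, against -0.11 for all genes, and turned to 0.03 with median-of-ratios scaling and 0.11 with the length and GC trends removed. With VHH-OD-PD-1-Fc averaged into 1 sample, Prc1, Kif20a and Ndc80 were the only falls that kept the call, and no rise kept it. Far fewer of all genes passed in that setting too, in both directions. Groups did not overlap for 18 genes that were lower and 11 that were higher, against 40.4% and 25.3% of all genes. Leaving out VHH-OD-Fc replicate 3 or VHH-OD-PD-1-Fc replicate 1 left 3 rises, where 11.6% and 11.7% of all genes rose. Leaving out VHH-OD-Fc replicate 1 or VHH-OD-PD-1-Fc replicate 3 left 6 falls, where 18.7% and 17.6% of all genes fell. The rise of Bub3 was lost without any 1 library of either group, as was that of Ube2c except without VHH-OD-Fc replicate 2.

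Given the OD arm alone (VHH-OD-Fc against Ctrl), no gene of the 40 passed the test. All genes gave 0 calls in limma as well (0% lower and 0% higher), with 449 of 14306 at an unadjusted p under 0.05, and 0 of the 40 were under that value. Log2 fold changes of the 40 ran from -0.21 to 0.15, and 32 were negative, with a median of -0.04 against -0.02 for all genes. That sign turned without Ctrl replicate 1 or without Ctrl replicate 3. The lowest p-values were those of Cdc20 at -0.21 (95% interval -0.50 to 0.08), Cdca8 at -0.18 (95% interval -0.45 to 0.08) and Ccna2 at -0.21 (95% interval -0.58 to 0.15), and on the positive side those of Ncapd2 at 0.10 (95% interval -0.15 to 0.34), Ckap2l at 0.15 (95% interval -0.22 to 0.51) and Kif20a at 0.04 (95% interval -0.26 to 0.34). Every one of the 40 genes overlapped between the VHH-OD-Fc and Ctrl libraries, where 6.70% of all genes were lower and 3.50% higher without overlap. For Mki67 the difference was -0.01 (95% interval -0.54 to 0.51) and for Prc1 -0.03 (95% interval -0.27 to 0.21).

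The difference from additivity is the change after VHH-OD-PD-1-Fc minus the changes after both single-arm proteins, all against Ctrl on the log2 scale. Proteins were dosed at different mg/kg, and the design is to that extent not factorial. Of the 40 genes 0 passed, with 0.021% of all genes lower and 0.0909% higher, and 18 had an unadjusted p under 0.05 in limma, against 11.9% of all genes. Signs were positive for 39 of the 40 (median 0.40, against 0.06 for all genes), and the comparison shares the VHH-PD-1-Fc and Ctrl libraries with those above. Cdc20 had 0.74 (SE 0.19, adjusted p = 0.164), Bub3 0.41 (SE 0.12, adjusted p = 0.212) and Plk1 0.85 (SE 0.25, adjusted p = 0.24), and Kif11 was the lowest at -0.03. Without VHH-PD-1-Fc replicate 3, 5 of the 40 passed as higher, against 0.538% of all genes.

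Across the 4 groups, 28 of the 40 differed by the moderated F test, against 49.7% of all genes. All genes of the checkpoint, passenger, cytokinesis and chromosome structure groups were among them, along with 4 of 7 cyclins and kinases, 2 of 4 centromere and kinetochore genes, 3 of 6 kinesins, 3 of 6 spindle proteins and 3 of 4 partners of the anaphase-promoting complex.

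Further cell cycle lists are read against all genes, of which 27.1% fell and 15.1% rose after VHH-OD-PD-1-Fc, and 32.3% fell and 14.6% rose after VHH-PD-1-Fc. Of 60 further G2 and M phase genes, 13 fell and 5 rose after VHH-OD-PD-1-Fc, with a median log2 fold change of -0.12, and 34 fell and 2 rose after VHH-PD-1-Fc, with a median of -0.46. The share that fell was thus below that of all genes after VHH-OD-PD-1-Fc and above it after VHH-PD-1-Fc. Over the 4 other scalings 4 to 21 fell and 2 to 10 rose after VHH-OD-PD-1-Fc, with a median of either sign (-0.35 to 0.06), and 12 to 47 fell and 0 to 5 rose after VHH-PD-1-Fc. Without Ctrl replicate 1 or 3 or VHH-OD-PD-1-Fc replicate 1 or 2 the count that fell after VHH-OD-PD-1-Fc was 8, and after VHH-PD-1-Fc it was 22 without Ctrl replicate 3. When the 3 libraries of VHH-OD-PD-1-Fc counted as 1 sample, 1 fell (Kif20b) and 1 rose (Cks2) in that group. Kif20b, a kinesin of late cytokinesis, was at 0.669, 0.958 and 0.838 FPKM in VHH-OD-PD-1-Fc tumours, 0.922, 0.511 and 1.32 in VHH-PD-1-Fc tumours, 3.64, 3.18 and 3.51 in VHH-OD-Fc tumours and 4.2, 3.06 and 4.31 in Ctrl tumours, so the libraries with the arm stood apart from those without. It fell, with a log2 change of -1.41 (SE 0.16, adjusted p = 0.00019) after VHH-OD-PD-1-Fc and -1.35 (SE 0.16, adjusted p = 0.000184) after VHH-PD-1-Fc. Lmnb1 (lamin B1 of the nuclear envelope) fell, with a log2 change of -0.48 (SE 0.10, adjusted p = 0.00351) after VHH-OD-PD-1-Fc and -0.73 (SE 0.10, adjusted p = 0.00033) after VHH-PD-1-Fc. Ncapd3, a subunit of the second condensin, fell, with a log2 change of -0.76 (SE 0.11, adjusted p = 0.000551) after VHH-PD-1-Fc, and Cep55, an organiser of abscission, with -0.93 (SE 0.20, adjusted p = 0.00385) after VHH-OD-PD-1-Fc.

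Some members of that list rose. Cks2, a small subunit of Cdk complexes, was at 81.7, 84.3 and 87.6 FPKM in VHH-OD-PD-1-Fc tumours, 56, 54.1 and 67 in VHH-PD-1-Fc tumours, 61.2, 56.8 and 50 in VHH-OD-Fc tumours and 53.3, 51.9 and 54.6 in Ctrl tumours, highest in every VHH-OD-PD-1-Fc library. After VHH-OD-PD-1-Fc it rose by 0.66 (SE 0.10, adjusted p = 0.000741) relative to Ctrl and by 0.52 (SE 0.10, adjusted p = 0.0495) relative to VHH-PD-1-Fc. Cenpw, a kinetochore protein, rose by 0.80 (SE 0.16, adjusted p = 0.00272) after VHH-OD-PD-1-Fc and 0.50 (SE 0.16, adjusted p = 0.0237) after VHH-PD-1-Fc. Ube2s, the chain-elongating E2 of the anaphase-promoting complex, rose by 0.32 (SE 0.08, adjusted p = 0.00706) after VHH-OD-PD-1-Fc, and Cks1b, the other Cks subunit, by 0.33 (SE 0.12, adjusted p = 0.0438) after VHH-PD-1-Fc. Melk, a kinase of dividing cells, was at 10.1, 9.9 and 9.73 FPKM in VHH-OD-PD-1-Fc tumours, 5.39, 6.28 and 7.39 in VHH-PD-1-Fc tumours, 8.38, 7.32 and 7.66 in VHH-OD-Fc tumours and 8.55, 8.05 and 9.5 in Ctrl tumours, and relative to VHH-PD-1-Fc it rose after VHH-OD-PD-1-Fc by 0.58 (SE 0.11, adjusted p = 0.0421), which makes it and Cks2 the 2 of 60 that passed in that comparison. Neither did with the 3 libraries as 1 sample, and 14 of the 60 passed as higher without VHH-PD-1-Fc replicate 3. Against VHH-OD-Fc, where 24.5% of all genes fell and 15.4% rose, 10 of the 60 fell and 8 rose after VHH-OD-PD-1-Fc (1 and 0 as 1 sample, and 4 to 7 and 4 without any 1 of its libraries), among them Kif20b with -1.29 (SE 0.16, adjusted p = 0.000308) and Cks2 with 0.59 (SE 0.10, adjusted p = 0.0014).

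Of 47 measured S phase and DNA replication genes, 6 fell and 9 rose after VHH-OD-PD-1-Fc (median 0.03), a lower share than of all genes that fell. After VHH-PD-1-Fc 22 fell and 3 rose (median -0.32), a higher share than of all genes that fell. Over the other scalings 3 to 16 fell and 1 to 15 rose after VHH-OD-PD-1-Fc, and 9 to 32 fell and 1 to 8 rose after VHH-PD-1-Fc. As 1 sample, VHH-OD-PD-1-Fc had 1 lower (Chaf1a) and 1 higher (Rpa3), and the 9 that rose became 2 to 4 without any 1 of its libraries and 3 without Ctrl replicate 2 or 3. The 6 that fell became 3 without Ctrl replicate 1 or VHH-OD-PD-1-Fc replicate 1. Chaf1a, a histone chaperone of replication, fell, with a log2 change of -0.84 (SE 0.10, adjusted p = 0.000178) after VHH-OD-PD-1-Fc and -0.96 (SE 0.10, adjusted p = 7.6e-05) after VHH-PD-1-Fc. Cdc6, which licenses origins, fell, with a log2 change of -0.96 (SE 0.14, adjusted p = 0.000429) after VHH-PD-1-Fc, and Gins3, of the replicative helicase, with -0.54 (SE 0.12, adjusted p = 0.00472) after VHH-OD-PD-1-Fc. Rpa3, of the single-strand binding complex, rose by 0.85 (SE 0.09, adjusted p = 0.000116) after VHH-OD-PD-1-Fc and 0.53 (SE 0.09, adjusted p = 0.000901) after VHH-PD-1-Fc, as did Rfc2, of the clamp loader, by 0.45 (SE 0.10, adjusted p = 0.00509) after VHH-OD-PD-1-Fc and 0.31 (SE 0.10, adjusted p = 0.0281) after VHH-PD-1-Fc. Against VHH-OD-Fc, 15 of the 47 rose and 2 fell after VHH-OD-PD-1-Fc, but 1 and 1 did as 1 sample, and with TPM 5 rose and 8 fell. Without any 1 VHH-OD-PD-1-Fc library 8 to 9 rose, and without VHH-OD-Fc replicate 3, 9 did.

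Of 23 regulators of the DREAM, B-Myb and FoxM1 systems, which act on promoters of the class shown above, 6 fell and 2 rose after VHH-OD-PD-1-Fc (median -0.17), neither share above that of all genes, and 14 fell and 0 rose after VHH-PD-1-Fc (median -0.47). Over the other scalings 4 to 11 fell and 0 to 4 rose after VHH-OD-PD-1-Fc, with a median of either sign (-0.42 to 0.13), and 7 to 16 fell and 0 to 3 rose after VHH-PD-1-Fc. As 1 sample, VHH-OD-PD-1-Fc had 2 lower (E2f3 and Nfya) and 0 higher. E2f3, an activator of cell cycle genes, fell, with a log2 change of -0.84 (SE 0.13, adjusted p = 0.000702) after VHH-OD-PD-1-Fc and -1.16 (SE 0.13, adjusted p = 0.000126) after VHH-PD-1-Fc. Nfya, a subunit of the CCAAT-binding NF-Y, fell, with a log2 change of -0.67 (SE 0.09, adjusted p = 0.00038) after VHH-OD-PD-1-Fc and -0.69 (SE 0.09, adjusted p = 0.000271) after VHH-PD-1-Fc, and relative to VHH-OD-Fc, Rbl2 (p130, the pocket protein of DREAM) fell, with a log2 change of -0.61 (SE 0.10, adjusted p = 0.00105) after VHH-OD-PD-1-Fc, a call lost as 1 sample. Rbbp4, a MuvB subunit, rose by 0.38 (SE 0.08, adjusted p = 0.00487) after VHH-OD-PD-1-Fc, and Nfyc, another NF-Y subunit, by 0.33 (SE 0.09, adjusted p = 0.0177).

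Of 12 measured CDK inhibitors and G1 cyclins and kinases, 3 fell and 1 rose after VHH-OD-PD-1-Fc, with neither share above that of all genes, and 5 fell and 1 rose after VHH-PD-1-Fc. Over the other scalings 2 to 5 fell after VHH-OD-PD-1-Fc and 3 to 8 after VHH-PD-1-Fc, where 3 fell without Ctrl replicate 2 or VHH-PD-1-Fc replicate 2, and as 1 sample VHH-OD-PD-1-Fc had 0 lower and 1 higher (Cdk4). Ccnd1, cyclin D1, was at 81.6, 80.3 and 80.7 FPKM in VHH-OD-PD-1-Fc tumours, 62.5, 47.4 and 74.1 in VHH-PD-1-Fc tumours, 127, 113 and 116 in VHH-OD-Fc tumours and 123, 122 and 128 in Ctrl tumours, with the PD-1 groups below and its partner Cdk4 above the Ctrl range. Ccnd1 fell, with a log2 change of -0.61 (SE 0.13, adjusted p = 0.00419) after VHH-OD-PD-1-Fc and -1.03 (SE 0.13, adjusted p = 0.000243) after VHH-PD-1-Fc, and Cdk4 rose by 0.60 (SE 0.07, adjusted p = 0.000217) after VHH-OD-PD-1-Fc and 0.56 (SE 0.07, adjusted p = 0.000237) after VHH-PD-1-Fc. Cdk2, a kinase of S phase entry, fell, with a log2 change of -0.61 (SE 0.10, adjusted p = 0.00118) after VHH-OD-PD-1-Fc and -0.69 (SE 0.10, adjusted p = 0.000545) after VHH-PD-1-Fc, while Cdkn1b (p27, a CDK inhibitor) fell, with a log2 change of -0.92 (SE 0.16, adjusted p = 0.00131) after VHH-OD-PD-1-Fc relative to VHH-OD-Fc, a call lost as 1 sample. Of 15 core subunits of the anaphase-promoting complex, 4 fell and 3 rose after VHH-OD-PD-1-Fc and 3 fell and 3 rose after VHH-PD-1-Fc, where the other scalings gave 2 to 7 lower and 2 to 6 higher after VHH-OD-PD-1-Fc and 1 to 7 lower and 2 to 7 higher after VHH-PD-1-Fc. Anapc4 and Anapc11 held their calls as 1 sample, and Anapc16 did not. Among them Anapc4 fell, with a log2 change of -0.77 (SE 0.13, adjusted p = 0.00105) after VHH-OD-PD-1-Fc and -0.99 (SE 0.13, adjusted p = 0.000247) after VHH-PD-1-Fc, and Anapc11 rose by 0.76 (SE 0.11, adjusted p = 0.000452) after VHH-OD-PD-1-Fc and 0.94 (SE 0.11, adjusted p = 0.000137) after VHH-PD-1-Fc. Anapc16 rose too, by 0.50 (SE 0.12, adjusted p = 0.0068) after VHH-OD-PD-1-Fc and 0.59 (SE 0.12, adjusted p = 0.00276) after VHH-PD-1-Fc.

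Marker counts of the tumour's cells are read against all genes. Of these, 27.1% fell and 15.1% rose after VHH-OD-PD-1-Fc, and 32.3% fell and 14.6% rose after VHH-PD-1-Fc. Relative to VHH-OD-Fc, 24.5% fell after VHH-OD-PD-1-Fc. In that comparison 6 of 7 fibroblast, 3 of 4 tested endothelial and 1 of 6 tested T cell markers were lower, and most of these calls were lost as 1 sample. Other counts of lower or higher markers are relative to Ctrl unless stated. By the F test 7 of 7 fibroblast, 3 of 4 endothelial and 3 of 3 adipocyte markers differed, against 49.7% of all genes. So did 2 of 6 T cell, 1 of 8 macrophage and 1 of 5 neutrophil markers, and 0 of the epithelial, B cell and muscle markers. Of 7 fibroblast markers, 2 were lower after VHH-OD-PD-1-Fc and 6 after VHH-PD-1-Fc, with a summed level of 545 to 549 FPKM in VHH-OD-PD-1-Fc tumours, 222 to 458 in VHH-PD-1-Fc, 679 to 1096 in VHH-OD-Fc and 568 to 804 in Ctrl tumours. Of 4 tested endothelial markers 3 were lower after each, with sums of 13.5 to 15.8 FPKM in VHH-OD-PD-1-Fc tumours, 11.7 to 15.4 in VHH-PD-1-Fc, 25.5 to 35.8 in VHH-OD-Fc and 21.2 to 30.4 in Ctrl tumours. Of 6 tested T cell markers 3 were lower after each, with sums of 9.28 to 10.4 FPKM in VHH-OD-PD-1-Fc tumours, 6.94 to 17.4 in VHH-PD-1-Fc, 8.07 to 13.3 in VHH-OD-Fc and 15.3 to 30.5 in Ctrl tumours.

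All 5 neutrophil markers were above VHH-PD-1-Fc in VHH-OD-PD-1-Fc (median log2 difference 1.44), each with an unadjusted p under 0.05 in limma and none past the adjusted threshold. Relative to Ctrl 2 of the 5 were higher after VHH-OD-PD-1-Fc, but 0 as 1 sample, and 2 were lower after VHH-PD-1-Fc, with sums of 1895 to 1952 FPKM in VHH-OD-PD-1-Fc tumours, 398 to 1200 in VHH-PD-1-Fc, 456 to 1861 in VHH-OD-Fc and 619.9 to 910.5 in Ctrl tumours. Of 8 macrophage markers 1 was lower after each, with sums of 1738 to 1763 FPKM in VHH-OD-PD-1-Fc tumours, 1533 to 4675 in VHH-PD-1-Fc, 1162 to 1619 in VHH-OD-Fc and 1301 to 2497 in Ctrl tumours. Of 2 tested B cell markers 1 was lower after VHH-OD-PD-1-Fc and 0 after VHH-PD-1-Fc. Among the B cell markers, Cd79a and Ms4a1 were at 0 in some libraries. Of 3 tested adipocyte markers 0 were lower after VHH-OD-PD-1-Fc relative to Ctrl, 3 relative to VHH-OD-Fc, and 1 after VHH-PD-1-Fc, with sums over all 5 of 7.97 to 9.41 FPKM in VHH-OD-PD-1-Fc tumours, 2.18 to 12.5 in VHH-PD-1-Fc, 25.7 to 89.6 in VHH-OD-Fc and 12.25 to 36.95 in Ctrl tumours, and Lep was at 0 in some libraries. Of 6 skeletal muscle markers 0 passed in any comparison, while their sum ran from 183 to 186 FPKM in VHH-OD-PD-1-Fc tumours, 12.4 to 33.15 in VHH-PD-1-Fc, 13.9 to 2120 in VHH-OD-Fc and 9.31 to 268 in Ctrl tumours, with Ckm and Myh4 at 0 in some libraries. Of the 8 epithelial markers 0 were lower and 1 was higher after VHH-PD-1-Fc, and 0 changed after VHH-OD-PD-1-Fc. None of the neutrophil, fibroblast, endothelial, T cell or epithelial markers was at 0 in any library. As 1 sample, VHH-OD-PD-1-Fc relative to Ctrl had 1 lower fibroblast marker, 1 lower endothelial marker and 0 calls in the other marker lists, and relative to VHH-OD-Fc it had 0 adipocyte calls. The part of these cells in the fall of the mitotic genes was not tested.

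**Figure D4:**
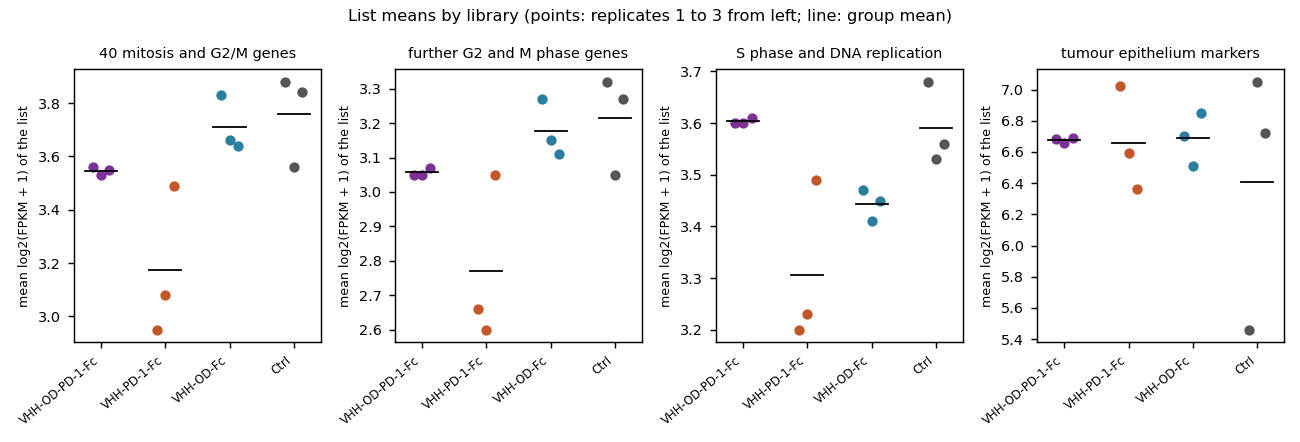
Mean log2(FPKM + 1) of 4 gene lists in each library (points, replicates 1 to 3 from left in each group), with group means as lines; each panel has its own scale, which does not start at 0. The 40 genes average 3.53 to 3.56 in VHH-OD-PD-1-Fc, 2.95 to 3.49 in VHH-PD-1-Fc, 3.64 to 3.83 in VHH-OD-Fc and 3.56 to 3.88 in Ctrl, and the epithelium markers are lowest in Ctrl replicate 1.

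Transcript length moved with the fold changes over all genes. Spearman's rank correlation between length and the log2 fold change was -0.351 over 13533 genes after VHH-OD-PD-1-Fc, -0.319 after VHH-PD-1-Fc and 0.00132 after VHH-OD-Fc. Over the 40 genes it was -0.376 after VHH-OD-PD-1-Fc, -0.282 after VHH-PD-1-Fc and 0.241 after VHH-OD-Fc. These genes share their libraries, so the correlation is a description. The median length of the 40 was 3671 bases, against 2884 for all genes with a length. Among genes of 3831 bases or more, 49.0% of all genes fell after VHH-PD-1-Fc and 12 of 18 of the mitotic genes did. Between 2004 and 3830 bases, 33.4% of all genes and 11 of 17 of the mitotic genes fell, and at 2003 bases or fewer 16.3% of all genes and 2 of 5 fell. After VHH-OD-PD-1-Fc the falls were 43.1% of all genes and 6 of 18 among the longest genes, 26.1% and 3 of 17 in the middle, and 13.2% and 0 of 5 in the shortest. What length and GC content contribute to the falls was not tested beyond the counts with their trends removed, 5 lower and 9 higher after VHH-OD-PD-1-Fc and 14 lower and 2 higher after VHH-PD-1-Fc.

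**Figure D5:**
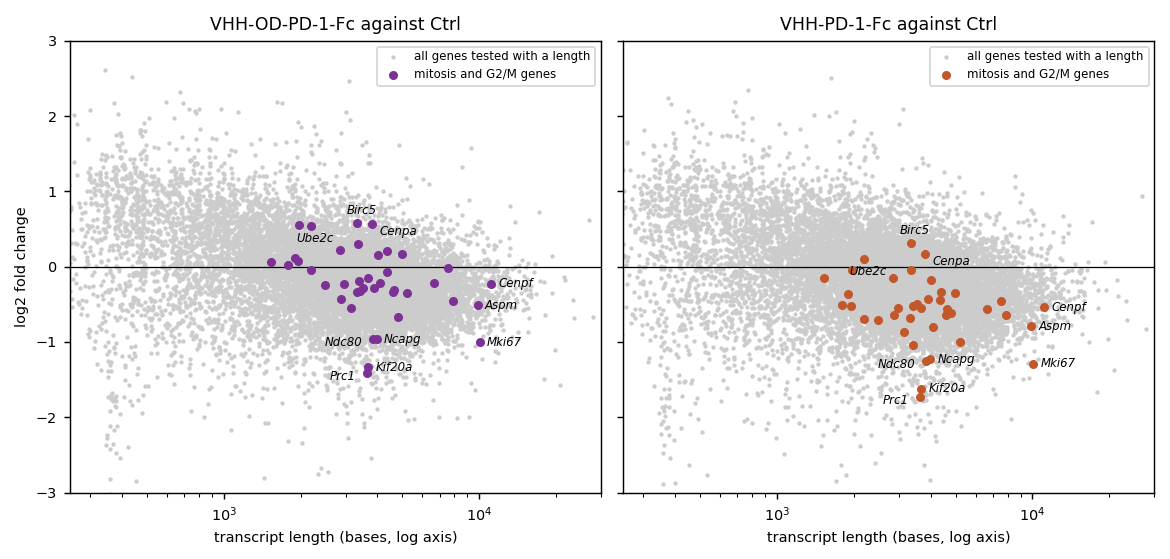
Log2 fold change against transcript length in bases (log axis) for all tested genes with a length (grey) and the 40 mitotic genes (coloured), after VHH-OD-PD-1-Fc (left) and VHH-PD-1-Fc (right). Longer genes lie lower in both panels, with a rank correlation of -0.351 on the left and -0.319 on the right, and Prc1 and Kif20a are the lowest of the 40 in both.

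Some of the genes with the largest falls share exon sequence with a gene on the other strand. In the GENCODE M21 annotation, 6 of the 40 share 500 bases or more of exon with a gene on the opposite strand: Kif20a shares 1271 bases with Cdc23, Ncapg 944 with Lcorl, Prc1 911 with Rccd1, Kif4 832 with Pdzd11, Ube2c 592 with Tnnc2 and Ccna2 510 with Exosc9. The use of strand in counting is not given in the sources used here, and without strand the reads of such a pair cannot be told apart. Of the 6, 4 fell after VHH-PD-1-Fc with a median of -0.89, and of the other 34, 21 fell with a median of -0.54. Over all genes, 44.8% of those with such an overlap fell after VHH-PD-1-Fc, against 31.9% of those without. After VHH-OD-PD-1-Fc 3 of the 6 and 6 of the other 34 fell, and over all genes the shares were 42.5% with and 26.2% without an overlap. Among the partners, Exosc9, of the RNA exosome, fell, with a log2 change of -1.17 (SE 0.15, adjusted p = 0.000243) after VHH-PD-1-Fc, and Cdc23, a subunit of the anaphase-promoting complex, with -0.56 (SE 0.11, adjusted p = 0.00249). Rccd1 did not pass, at -0.31 (SE 0.15, adjusted p = 0.103), and Pdzd11 rose by 0.29 (SE 0.10, adjusted p = 0.0417). Rccd1 was at 0.575 to 1.41 FPKM in all 12 libraries, below Prc1 in each. Lcorl and Tnnc2 did not pass the filter on low values. The part of these overlaps in the falls of Prc1, Kif20a and Ncapg was not tested. Mki67 and Ndc80, the other genes among the 5 largest falls, have no opposite-strand exon overlap of that length.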

How the data were processed

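Bulk poly(A) RNA, sequenced as 150-base read pairs, was deposited as 1 table of 12 libraries, 3 in each of 4 groups assigned from the labels. The values are FPKM as the authors computed them, with fastp 0.22.0 and HISAT2 2.2.1 named in the submitters' processing notes, which give the human build GRCh38 although the gene symbols are mouse. How fragments were counted, with which annotation, strand setting and filters, is not given in the sources used here. Whole reads could not be recovered, since only 64.5% to 69.3% of low values came within 0.05 of whole numbers, so no count test was run.

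Log2(FPKM + 1) of the 14306 of 41009 genes with at least 1 FPKM in at least 3 libraries was fitted with limma 3.58.1 in R 4.3.3 (moderated with a trend), with all 12 libraries in 1 fit. Its 6 comparisons and moderated F test were two-sided, adjusted by Benjamini and Hochberg over all tested genes, and called at an adjusted p under 0.05. Log2 fold changes are on the log2(FPKM + 1) scale and understate changes of low genes. Tables and figures used pandas 2.3.3 and matplotlib 3.10.9 under Python 3.11.15, and the fit was tested on simulated data. The alternatives were a pseudocount of 0.1, other filters, 4 other scalings, library weights, a replicate block, each library left out, the 3 VHH-OD-PD-1-Fc libraries as 1 sample, only the groups compared and, added after seeing the data, 3 libraries left out together. Lengths and GC content came from GENCODE M21, with values for 94.6% of tested genes and 40 of 40 mitotic genes.

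The mitotic genes and all lists were chosen with earlier results of these data known. All 40 are named. Values in every library are given for fixed markers and the gene of smallest F p in each role, with the 3 of smallest p per direction in each comparison, and up to 3 or 2 called genes per direction from the other lists. Values in every library of other genes, such as Cdca8, Kif11 or Ckap2l, were chosen after they were seen. Promoters printed are the 5 of smallest F p with both motifs.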

Additional observations from a re-analysis of the deposited data

Results flagged for a closer look

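Bub3, which docks checkpoint kinases at kinetochores, was at 18.2, 19.3 and 18.5 FPKM in VHH-OD-PD-1-Fc tumours, 14.4, 13.3 and 16 in VHH-PD-1-Fc tumours, 15.6, 16.1 and 15.6 in VHH-OD-Fc tumours and 16, 16.4 and 17.4 in Ctrl tumours. Every VHH-OD-PD-1-Fc library lay above every Ctrl library and every VHH-PD-1-Fc library lay below them, by the least for VHH-PD-1-Fc replicate 3 at 15.99 FPKM against Ctrl replicate 1 at 16.047 FPKM, which drew attention to it as the 1 gene of the 40 whose changes after the proteins with the PD-1 arm ran in opposite directions without overlap. Of all genes, 33.7% were lower than Ctrl without overlap after VHH-PD-1-Fc and 23% higher without overlap after VHH-OD-PD-1-Fc. The share of all genes with both was not counted, so how unusual this pattern is was not tested. The direct difference in Bub3, VHH-OD-PD-1-Fc minus VHH-PD-1-Fc, was 0.34 on the log2(FPKM + 1) scale (SE 0.08, limma adjusted p = 0.0873) and did not pass the threshold.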

How the results depend on the processing

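Counts are genes that passed, of the 40 or, with the filter on the mean, of the 31 tested. Of all genes, 32.3% fell after VHH-PD-1-Fc, 18.1% with quantile normalization or only the groups compared and 16.4% without the trends. After VHH-OD-PD-1-Fc against Ctrl 27.1% fell, 43.3% with TPM, 18% with quantile normalization and 15.5% without the trends. With weights 43.5% fell and with only the groups compared 33.8%. There 15.1% rose, 9.89% with TPM, 21% with median of ratios, 18.8% without the trends and 25.7% with weights. After VHH-PD-1-Fc, 25 fell: 16 with a mean of at least 5 FPKM, 16 with quantile normalization, 14 with the length and GC trends removed, 15 with only the groups compared, and 18 to 33 without 1 library. In that comparison 0 rose as reported, but 2 did with median of ratios, 2 with the trends removed and 0 to 1 without 1 library. After VHH-OD-PD-1-Fc against Ctrl, 9 fell: 5 with the mean filter, 17 with TPM, 5 with quantile normalization, 5 with the trends removed, 22 with library weights, 3 with its libraries as 1 sample, 16 with only the groups compared, and 5 to 14 without 1 library. The 4 that rose became 1 with TPM, 7 with median of ratios, 9 with the trends removed, 7 with weights and 0 as 1 sample, and 3 to 5 without 1 library. Against VHH-PD-1-Fc 0 rose, but 0 to 14 did without 1 library, where 0.0489% to 2.69% of all genes rose. Without the 3 libraries that stood apart 1 rose, against 2.22% of all genes. Against VHH-OD-Fc 24.5% of all genes fell, 37.1% with weights and 34.1% with only the groups compared. Against VHH-OD-Fc 9 fell: 4 with the mean filter, 16 with weights, 3 as 1 sample, 16 with only the groups compared and 6 to 12 without 1 library; 6 rose, against 1 with TPM, 0 as 1 sample and 3 to 7 without 1 library. Departures from additivity were 0, and 0 to 5 were higher without 1 library, where 0.021% to 0.538% of all genes were. The F test called 28: 17 with the trends removed, 16 without the 3 that stood apart and 19 to 38 without 1 library, and fewer as 1 sample. Of all 14306 genes it called 7110, with 6834 without those 3 and 5924 to 7705 without 1 library. With the trends removed it called 5634 of 13533, and as 1 sample it called fewer of all genes too. The causes were not tested, except that the mean filter tests fewer genes and the 1-sample setting has fewer samples.

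With the trends removed Mad2l1 turned, to 0.39 after VHH-OD-PD-1-Fc against Ctrl (adjusted p = 0.00625) and to 0.016 after VHH-PD-1-Fc (adjusted p = 0.903). Values of single genes and medians of the 40 genes under the alternatives were tallied together. Of these, 5253 were unchanged, which means the same sign and call for a gene or a median within the replicate spread. A call was lost in 187 of the values and gained in 138. Genes without a call in the main fit, such as all 40 in VHH-OD-Fc against Ctrl, had none to lose, so 187 is not a share of the calls. Another 229 moved, which means a gene whose sign turned without a call or a median beyond the replicate spread. That spread was set at 0.338, the median SD of VHH-PD-1-Fc and the largest of the 4 groups, and no median lay beyond it. The median after VHH-OD-PD-1-Fc against Ctrl thus counted as unchanged although it turned from -0.22 to 0.03 with the trends removed. In 2 of the values the sign turned with a call in 1 of the settings. The counts of genes that passed were tallied apart. Of these counts 271 were equal to the main count or within a set factor of it, also where both were 0, and 38 moved further. Equal replicate numbers did not pair the libraries, with r of -0.154 to 0.184 over 18 pairs. With the replicate block 24 fell after VHH-PD-1-Fc, against 30.9% of all genes. After VHH-OD-PD-1-Fc against Ctrl 10 fell and 3 rose there, beside 25.9% and 14.3% of all genes. Against VHH-OD-Fc 10 fell and 4 rose, beside 23.4% and 14.7%. The F test with the block called 25 of the 40 and 6637 of all 14306 genes, and the other comparisons gave 0 of the 40.

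Limits bear on all of this. A batch cannot be told apart from the PD-1 arm, the number of 3 libraries per group leaves wide intervals, and low genes such as Aspm are measured near the filter.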
